A study of Mus musculus with 17 samples.

Results

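WT1 binding in podocytes purified from vehicle-treated mice was set against WT1 binding in whole glomeruli of vehicle-treated mice. The members were all peaks of 2 deposited lists, 23402 from PBS podocytes and 29082 from PBS glomeruli, chosen by their group and treatment. Together they made 52484 of the 107761 peaks in the 5 lists of the series, and they stood for 7 of its 17 samples. The podocyte group held 3 libraries from mT/mG reporter mice that also carry a recombinase transgene, in which podocytes are marked so that they can be purified. The glomerular group held 4 libraries from isolated glomeruli of BALB/cJ mice, with the glomeruli of 2 kidneys per immunoprecipitation. All mice were 7 to 8 weeks old, were labelled wildtype and received phosphate-buffered saline (PBS), and all immunoprecipitations used the same antibody (sc-192). The other lists came from mice given adriamycin (ADR), a drug toxic to podocytes: glomeruli of BALB/cJ mice, and purified podocytes of the same reporter mice at day 9 and day 14.

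WT1 is a zinc-finger transcription factor that binds GC-rich DNA. In the adult glomerulus, the filtering unit of the kidney, it is made chiefly by podocytes, the epithelial cells whose foot processes and slit diaphragms cover the capillaries. Loss of WT1 from podocytes leads to protein loss in the urine and scarring of the glomerulus. A preparation of whole glomeruli also holds endothelial and mesangial cells, whose chromatin enters the immunoprecipitation together with that of podocytes. The comparison therefore sets binding in the purified cell beside binding measured in the tissue that contains it. Strain and preparation differed together and cannot be told apart.

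Each group was represented by 1 peak list, so that no difference had a replicate error and none was tested. Intervals beside shares are 95% Wilson intervals, which cover the counting of peaks only. Fold enrichment, the caller's ratio of reads at the summit to background, had a median of 6.30 and a maximum of 102 in podocytes, and a median of 7.46 and a maximum of 34.8 in glomeruli. Because the scales differed, each peak was given its percentile of fold enrichment within its own list, from 0 for the weakest to 100 for the strongest. No genome or annotation of the files' build, mm9, was used here, and sites are given by position without gene names or sequences.

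Most WT1 sites of each preparation overlapped a site of the other. Without an overlapping glomerular peak were 4525 podocyte peaks (19.3%), and without an overlapping podocyte peak were 9776 glomerular peaks (33.6%). The order of these shares went with the lengths of the lists and turned when the lengths were made equal. With the glomerular list trimmed to the length of the podocyte list by p-value the shares were 27.1% and 26.2%, and with a −log10 q of 10 required of every peak they were 26.5% and 25.7%. Matching was mostly simple. Of the matched podocyte peaks 18291 overlapped a single glomerular peak, 559 overlapped 2, 26 overlapped 3 and 1 overlapped 4. Of the matched glomerular peaks 19121 overlapped a single podocyte peak and 185 overlapped 2. The 586 podocyte peaks with several matches were broad, with a median width of 1082 bp, and the 185 glomerular ones had a median of 802 bp.

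The podocyte peak with 4 matches lay at 71210674 to 71212891 on the X chromosome, and was singled out after its match count was seen. Its fold enrichment was 10.1. The glomerular list had 3 separate peaks inside it, of 6.04-fold, 8.31-fold and 4.68-fold enrichment and 284 to 384 bp wide. The fourth, of 5.49-fold enrichment at 71212856 to 71213238, overlapped only the end of the podocyte peak and lay mostly beyond it.

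For the comparison of rank, width and summit, each peak was joined to the peak it overlapped most, and a pair was kept where this choice was mutual. This gave 18716 pairs, which held 80.0% of podocyte and 64.4% of glomerular peaks. In 17960 overlaps both peaks had no other match.

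The 5 pairs with the highest mean percentile stood at the same place in both preparations. On chromosome 16 a podocyte peak at 50786065 to 50786969 had 102-fold enrichment, and its glomerular partner at 50786114 to 50786889 had 34.8-fold, with summits 1 bp apart. A pair on chromosome 1 (174366661 to 174367559 in podocytes) had 93.4-fold and 34.8-fold enrichment, with summits 8 bp apart. A pair on chromosome 10 (5165707 to 5166940) had 94.8-fold and 34.2-fold, one on chromosome 15 (95039546 to 95040230) 80.2-fold and 34.6-fold, and one on chromosome 17 (81105715 to 81106929) 82.5-fold and 34.3-fold. All 5 also had a peak in each of the 3 ADR lists. Over all pairs a peak was present at 58.0% in ADR glomeruli, 93.4% at day 9 and 32.7% at day 14. In day 9 podocytes they reached 99.6-fold to 137-fold enrichment, while in ADR glomeruli they ranged from 10.3-fold on chromosome 17 to 37.0-fold on chromosome 1. Glomerular fold enrichment spanned only 34.2 to 34.8 over the 5 pairs, against 80.2 to 102 in podocytes. The glomerular −log10 q was 93.99 at all 5, and also at the strongest glomerular peak without a podocyte match. The order among these glomerular peaks therefore rests on small differences. Why their values were so level was not tested.

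Over all pairs the ranks were related with a wide scatter. Spearman's rho between the fold enrichments was 0.606 over 18716 pairs, a description across sites that share their libraries. The percentile differed by at most 10 points in 6870 pairs (36.7%), and the median absolute difference was 15.4 points. Differences were smallest at the top, where a mean near 100 leaves little room for one. Among the tenth of pairs with the highest mean percentile the median absolute difference was 2.83 points, while it reached 32.5 points in the third decile from the bottom. Of the 1000 strongest peaks of each list, 488 were paired with one another, or 48.8% of either list. Of the 100 strongest, 37 were.

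**Figure D1:**
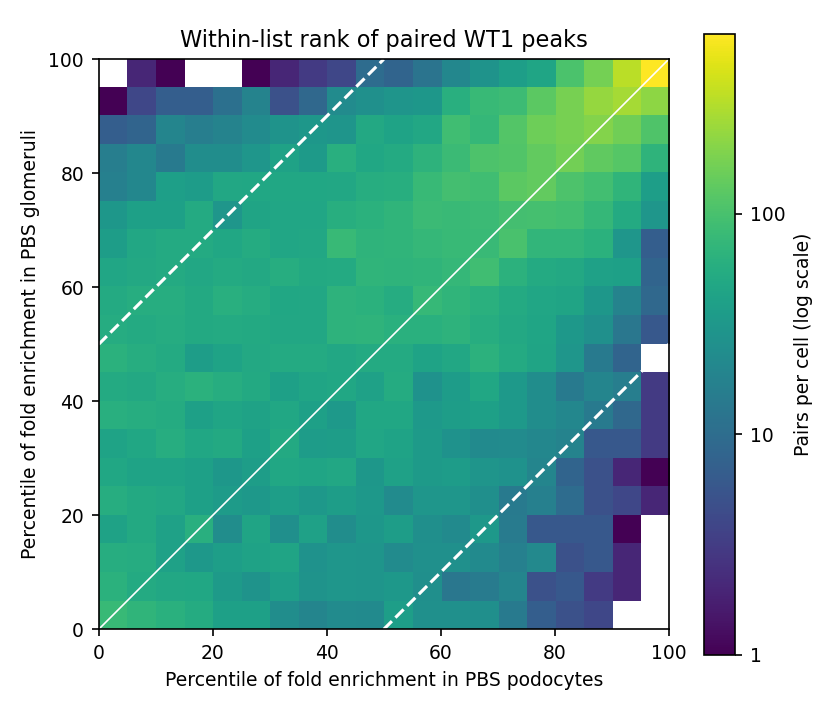
Number of pairs (colour, log scale) by percentile of fold enrichment in PBS podocytes (x axis) and in PBS glomeruli (y axis), with equality as a solid line and a difference of 50 points as dashed lines. The 18716 pairs crowd into the upper right corner and spread widely below it, with 449 pairs past the lower and 1108 past the upper dashed line.

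Large rank differences were found at a small part of the pairs. The podocyte percentile exceeded the glomerular one by at least 50 points in 449 pairs, which is 2.40% of all pairs, and these are called podocyte-higher. The glomerular percentile exceeded the podocyte one by at least 50 points in 1108 pairs, or 5.92%, called glomerulus-higher. The excess of the second class depended on the reference for the percentile. The glomerular list was longer and its paired peaks sat in its upper part, with a median percentile of 64.6 against 57.2 in podocytes. With percentiles taken among the paired peaks only, the counts were 578 and 553 of 18716 pairs. With both lists trimmed to equal length they were 614 and 660 of 16900 pairs. Pairs strong in one list and weak in the other were rare. Of 2309 pairs above the 90th percentile in podocytes, 62 were below the 50th in glomeruli. Of 2839 pairs above the 90th percentile in glomeruli, 134 were below the 50th in podocytes. Below the 10th percentile in the other list these numbers were 2 and 7.

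The largest gain in rank in the purified cell was on chromosome 19. There a podocyte peak at 41556585 to 41557855 with 16.4-fold enrichment (percentile 89.2) was paired with a glomerular peak at 41557124 to 41557362 with 3.76-fold (percentile 3.004). This site had no peak in ADR glomeruli, and it stood at percentile 90.4 in day 9 and 67.9 in day 14 podocytes. Both injury lists from purified cells therefore ranked it in their upper part.

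A site on chromosome 3 came next, with 19.35-fold enrichment in podocytes (134911911 to 134912660, percentile 92.2) and 4.20-fold in glomeruli (134912184 to 134912425, percentile 6.52). It was stronger still at day 9, with 45.3-fold enrichment and percentile 97.9, and had no peak in ADR glomeruli. The third site, on chromosome 6 (134516629 to 134517363), had 17.4-fold and 4.25-fold enrichment in podocytes and glomeruli. Its glomerular peak was 185 bp wide against 735 bp in podocytes, and the summits lay 421 bp apart, so that the glomerular peak marked the edge of the podocyte region.

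On chromosome 11 there were 2 such sites. The first (98724444 to 98725244) had 15.2-fold against 4.00-fold enrichment. The other (80196048 to 80197630) had 11.95-fold against 2.52-fold, and its glomerular partner was among the weakest peaks of its list, at percentile 0.0292. ADR glomeruli had a peak at both, at percentiles 59.6 and 4.99.

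The remaining 5 of the 10 leading podocyte-higher pairs were on chromosomes 19 (23908824 to 23909346 and 57071711 to 57072245), 13 (58510008 to 58510489), X (101176497 to 101177157) and 1 (38325556 to 38326457). The site on chromosome 13 stood higher in ADR glomeruli, at percentile 70.1, than in day 9 podocytes, at 59.7. At the other leading sites with a peak in both of these lists, day 9 podocytes ranked higher. Across the 10, podocyte fold enrichment ran from 11.95 to 20.7 and glomerular from 2.52 to 4.70. The podocyte peak was the wider one in 10 of 10, against 80.0% of all pairs. Width grew with strength in both lists, so that choosing strong podocyte beside weak glomerular peaks tilts this count. It is a description only. A day 9 peak was present at 10, a day 14 peak at 8 and an ADR glomerular peak at 4. Over all pairs such peaks were present at 93.4%, 32.7% and 58.0%. The choice of strong podocyte and weak glomerular peaks bears on these counts.

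In the opposite direction the largest difference was on chromosome 18. A glomerular peak at 76231399 to 76232222 had 24.3-fold enrichment (percentile 97.5), and its podocyte partner at 76231667 to 76232137 had 3.19-fold (percentile 5.97). In ADR glomeruli the site was again strong, at 14.3-fold and percentile 87.4. Day 9 podocytes had it at percentile 49.2, higher than PBS podocytes but far below either glomerular list.

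On chromosome 14 a glomerular peak at 76985562 to 76986339 had 23.35-fold enrichment (percentile 96.8) against 3.47-fold in podocytes (76985678 to 76985948, percentile 9.14). The podocyte peak was 271 bp wide and the glomerular one 778 bp. ADR glomeruli had 17.3-fold enrichment there, at percentile 92.3, and day 9 podocytes 4.99-fold, at percentile 27.5. A second site on chromosome 14 (66456533 to 66456921 in glomeruli) had 17.1-fold against 2.90-fold.

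Chromosome 19 held the third (47387988 to 47388686 in glomeruli, 17.2-fold against 2.81-fold), and it was weak in ADR glomeruli too, at percentile 2.63. A site on chromosome 2 (30662957 to 30663548) differed from it. Its enrichment was 15.6-fold in PBS glomeruli, 23.35-fold in ADR glomeruli (percentile 97.1) and 2.75-fold in PBS podocytes, and it had no peak at day 9 or day 14.

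The remaining 5 of this 10 lay on chromosomes 13 (41453933 to 41454615), 11 (59770229 to 59770682), 18 (32196490 to 32196933), 1 (120524292 to 120524745) and 7 (16683405 to 16684092). Glomerular fold enrichment ran from 14.5 to 24.3 over the 10 and podocyte from 2.16 to 3.50. ADR glomeruli had a peak at 9 of the 10 and day 9 podocytes at 9. Day 14 podocytes had none. Over all pairs ADR glomeruli had a peak at 58.0%, day 9 podocytes at 93.4% and day 14 podocytes at 32.7%. The 10 were chosen for a low podocyte rank, and the day 14 list was the shortest. Their absence there is thereby tilted by the choice and is a description only.

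The limit of 50 points cut through a continuous range. Just inside it on the podocyte side was a pair on chromosome 5 (147687496 to 147688345) with a difference of 50.04 points. Of the pairs just outside, one on chromosome 2 (20658751 to 20659078) had 49.98 and one on chromosome 6 (99472071 to 99473698) 49.95. On the glomerular side the nearest were a pair on chromosome 12 (77634186 to 77634650 in glomeruli) with -50.02 and one on chromosome 11 (59599903 to 59600343) with -49.97.

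The ADR lists gave a view of the same sites in libraries that had not chosen them, with the same division of strain and preparation and a different treatment. Whether they were called against the same control as the PBS lists was not given. By fold enrichment, podocyte-higher sites ranked low in ADR glomeruli and a little above all pairs in day 9 podocytes. Glomerulus-higher sites ranked low in day 9 podocytes and like all pairs in ADR glomeruli. At podocyte-higher pairs the median percentile was 71.2 in day 9 podocytes and 44.1 in ADR glomeruli, counted where a peak was present. Over all pairs these medians were 67.7 and 61.5. At glomerulus-higher pairs they were 25.2 and 61.6. Where both lists had a peak, the percentile in day 9 podocytes minus that in ADR glomeruli had a median of 21.3 points over 217 podocyte-higher pairs, 1.86 over 10431 of all pairs and -32.6 over 754 glomerulus-higher pairs. Day 9 stood above ADR glomeruli in 170 of the 217 (78.3%), in 53.4% of all and in 144 of the 754 (19.1%).

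Presence of a peak also differed between the classes. ADR glomeruli had a peak at 49.2% of podocyte-higher pairs (44.6 to 53.8), at 58.0% of all and at 73.6% of glomerulus-higher pairs (70.9 to 76.1). Day 14 podocytes, the shortest list with 6694 peaks, had a peak at 40.1% of podocyte-higher pairs (35.7 to 44.7), at 32.7% of all and at 2.80% of glomerulus-higher pairs (1.98 to 3.94). Day 9 podocytes had one at 97.3%, 93.4% and 91.0%. The glomerulus-higher sites were thus mostly present at day 9, in the lower part of the ranking, and mostly without a peak at day 14. Their median fold enrichment in PBS podocytes, which the rule had used, was 3.73, against 7.04 over all pairs and 9.67 at podocyte-higher pairs. The choice of glomerulus-higher pairs for a low podocyte rank and the short day 14 list bear on their absence there.

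The background behind the fold enrichment differed between the classes. A background can be read from a peak's fold enrichment and p-value together, if enrichment is pileup plus 1 over background plus 1 and p is the Poisson tail. This form is inferred. The implied background at podocyte peaks had a median of 4.56 reads with quartiles of 2.33 and 9.23, while that at glomerular peaks had 1.82 with quartiles of 1.28 and 2.24. The podocyte background therefore varied far more from site to site. At glomerulus-higher pairs its median was 12.9 reads in PBS podocytes, against 5.01 over all pairs and 2.94 at podocyte-higher pairs. These PBS values, and those of the PBS glomeruli, are solved from the same fold enrichment that chose the classes. A class chosen for a low podocyte fold is thereby tilted toward a high podocyte background, and the values are a description only. Day 9 podocytes, whose list was not used in the choice, had medians of 11.6, 4.76 and 2.90 reads. Whether they shared a control with PBS podocytes was not given, so that the day 9 backgrounds may not be independent of the PBS ones. In PBS glomeruli the medians were 1.72, 1.91 and 2.89, and in ADR glomeruli they were 1.05, 1.02 and 0.977. The labels give an input library for PBS and one for ADR glomeruli, and no podocyte input was analysed here. Its part in the rank differences was not tested beyond the rankings by p-value and by pileup.

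**Figure D2:**
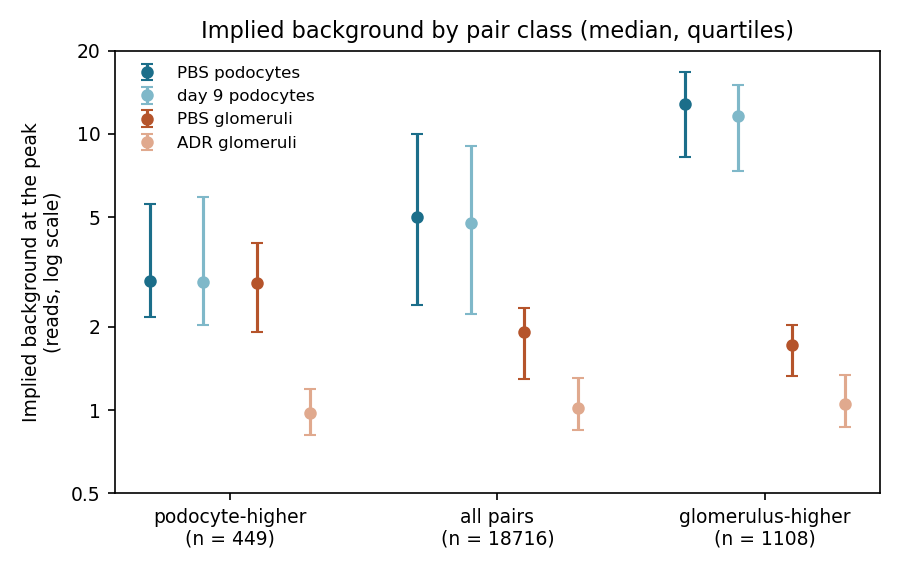
Implied background in reads (y axis, log scale) at podocyte-higher pairs, all pairs and glomerulus-higher pairs, as median (point) and quartiles (bars) in 4 lists. The 2 podocyte lists rise from about 2.9 reads at podocyte-higher to 12.9 and 11.6 reads at glomerulus-higher pairs, while the ADR glomerular medians stay between 0.977 and 1.05.

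Ranking by other quantities changed which sites differed. By p-value, podocyte-higher pairs numbered 302 (1.61%) and glomerulus-higher pairs 537 (2.87%), of which 184 and 359 were also found by fold enrichment. By implied pileup, the reads at the summit with no division by background, there were 288 (1.54%) and 456 (2.44%), of which 56 and 84 were also found by fold enrichment. The sign of the difference was the same by p-value in 449 of 449 and 1108 of 1108 pairs, and by pileup in 363 and 848 of them. At the glomerulus-higher pairs chosen by fold enrichment the median podocyte pileup was 47.2 reads, close to the 46.9 over all pairs, and the median glomerular pileup was 30.7 against 26.8. At the podocyte-higher pairs it was 43.3 in podocytes and 16.2 in glomeruli.

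The difference seen in the ADR lists followed the quantity ranked as well. By p-value, day 9 minus ADR glomeruli had a median of 23.6 points at podocyte-higher pairs, 9.12 over all pairs and -5.04 at glomerulus-higher pairs. By implied pileup these were 21.3, 13.1 and 11.01. The podocyte-higher sites thus lay above the level of all pairs under each of the 3 rankings, while the glomerulus-higher sites lay far below it by fold enrichment and close to it by pileup. Of the 10 leading podocyte-higher pairs, 10 passed 50 points by p-value and 5 by pileup. Of the 10 leading glomerulus-higher pairs, 10 passed by p-value and 1 by pileup, the site at 76985562 to 76986339 on chromosome 14, where the podocyte background was 4.14 reads.

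**Figure D3:**
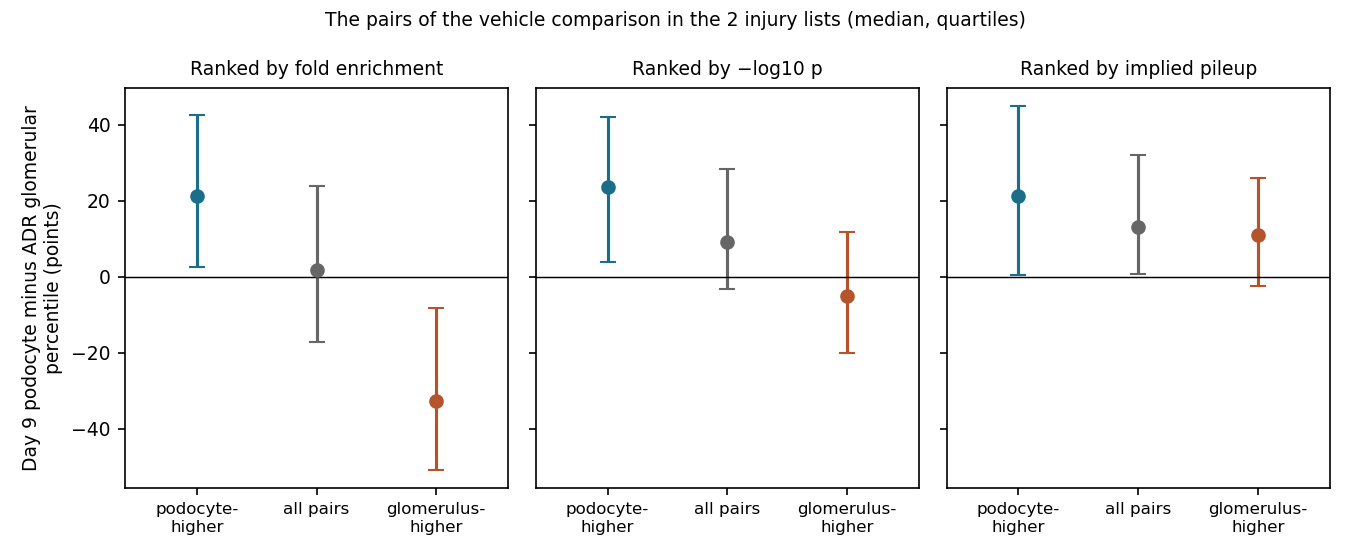
Percentile in day 9 podocytes minus percentile in ADR glomeruli (y axis, points; median and quartiles) for podocyte-higher pairs, all pairs and glomerulus-higher pairs, ranked by fold enrichment, by −log10 p and by implied pileup. Podocyte-higher pairs lie at 21.3, 23.6 and 21.3 points, and glomerulus-higher pairs move from -32.6 through -5.04 to 11.01.

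Glomerulus-higher pairs were unevenly spread over chromosomes. They made up 8.25% of the pairs on chromosome 7, 8.13% on chromosome 8 and 8.10% on chromosome 11, against 3.72% on chromosome 12 and 2.01% on the X chromosome. Over 19 autosomes their share had a Spearman's rho of 0.730 with the number of protein-coding genes per Mb (gene counts of GRCm38), as a description over chromosomes of the same 2 lists. The median podocyte background had a rho of 0.747 with the same gene density. That background is solved from the same podocyte fold enrichment that chose the class, so that these values of rho are not independent. Ranked by p-value the share of glomerulus-higher pairs had 0.435. The podocyte-higher share had -0.312, and it ran from 1.79% on chromosome 16 to 3.60% on chromosome 10 among autosomes. Around a glomerulus-higher pair there was a median of 4 other glomerular peaks within 50 kb of the summit, against 3 for all pairs and 3 for podocyte-higher pairs. No other glomerular peak lay within that distance for 18.3% of podocyte-higher, 12.2% of all and 10.7% of glomerulus-higher pairs.

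Peaks were wider in the purified cell. The median width was 472 bp in podocytes (quartiles 356 and 627) and 334 bp in glomeruli (254 and 462). Within pairs the podocyte peak was the wider in 14981 (80.0%), the glomerular in 3691, and 44 were equal. The ratio of widths had a median of 1.25 with quartiles of 1.05 and 1.52. The smallest width differed as well, at 267 bp in podocytes (456 peaks) and 182 bp in glomeruli (294 peaks), a ratio of 1.47. Its part in the width difference was not tested.

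The ratio hardly moved with strength, from 1.30 in the weakest decile of pairs to 1.22 in the strongest, while widths themselves grew from 361 to 726 bp in podocytes and from 287 to 587 bp in glomeruli. It did move with the difference in rank, though the choice of the classes bears on this. They were chosen by fold enrichment, and width grew with strength in both lists. A strong podocyte peak beside a weak glomerular one is thereby tilted toward a high ratio, and the reverse toward a low one. The class ratios are a description only. Podocyte-higher pairs had a median ratio of 1.92, and the podocyte peak was wider in 97.8% of them. Glomerulus-higher pairs had 0.927, and the podocyte peak was wider in 39.2%. Among pairs above the 50th percentile in both lists, the largest ratio was 6.09 on chromosome 1 (181889270 to 181890895 in podocytes, 1626 bp, against 181890064 to 181890330 in glomeruli, 267 bp). Enrichment there was 10.8-fold in both lists, at percentile 77.6 in podocytes and 71.8 in glomeruli. The smallest was 0.416 on chromosome 7, where a podocyte peak of 406 bp (19813628 to 19814033) lay inside a glomerular peak of 975 bp (19813234 to 19814208).

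Summits of paired peaks lay close together. The median distance was 28 bp with quartiles of 12 and 59 bp, and 209 pairs had the same summit base. Summits were within 50 bp in 70.2% of pairs, within 100 bp in 88.4% and within 200 bp in 96.2%. Neither list was displaced to one side, with a median signed distance of -1 bp. Distance fell with strength, from a median of 53 bp in the weakest decile of pairs to 15 bp in the strongest, where 99.2% lay within 200 bp. Summits of podocyte-higher pairs were 39 bp apart in the median and those of glomerulus-higher pairs 31.5 bp. The 5 largest distances among pairs above the 50th percentile in both lists ran from 1235 to 2215 bp, all in podocyte peaks at least 1938 bp wide. The largest was 2215 bp on chromosome 10, in a podocyte peak of 3263 bp (127103352 to 127106614). The rank of this peak nearly equalled that of its glomerular partner (percentiles 95.5 and 95.4), with 25.2-fold and 21.6-fold enrichment. Next came 2108 bp on chromosome 12 (81213764 to 81216936), in a podocyte peak of 3173 bp.

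**Figure D4:**
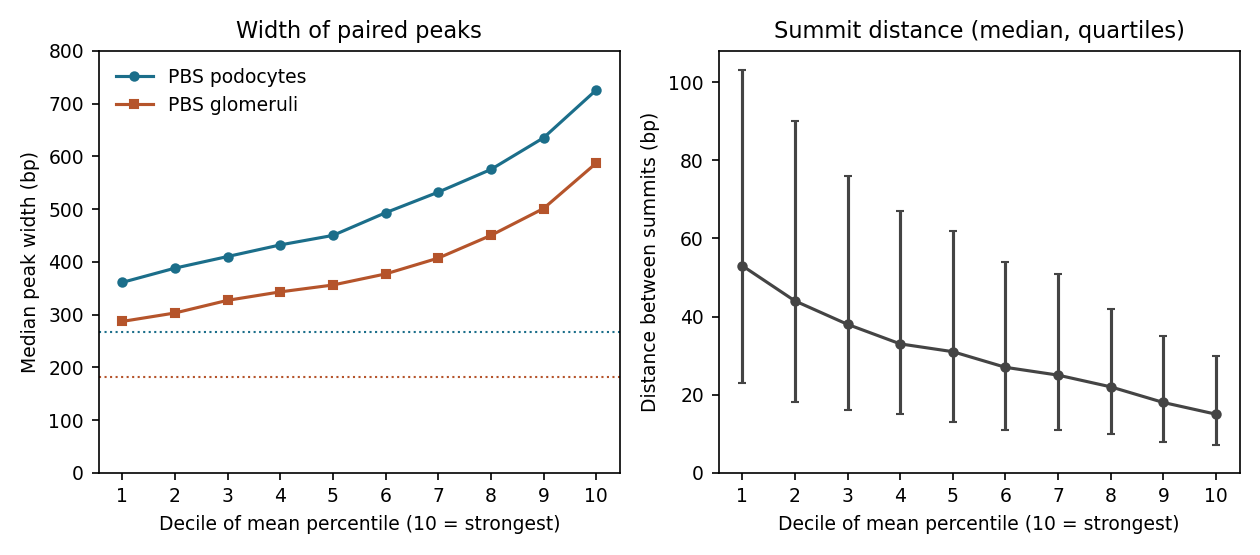
Median width in bp of paired peaks in PBS podocytes and PBS glomeruli (left; dotted lines mark the smallest width in each list, 267 and 182 bp) and distance in bp between paired summits (right; median and quartiles), by decile of the mean percentile of a pair. Both widths rise with strength while the summit distance falls from 53 to 15 bp.

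Unmatched peaks were mostly weak, and strong ones were few. Their median percentile was 31.7 in podocytes and 28.6 in glomeruli, and their median widths of 352 and 255 bp compared with 505 and 392 bp for matched peaks. In the strongest decile 27 of 2341 podocyte peaks (1.15%, 0.794 to 1.67) and 42 of 2909 glomerular peaks (1.44%, 1.07 to 1.95) had no match. The share without a match peaked at 34.4% in decile 4 of the podocyte list and at 60.6% in decile 2 of the glomerular list. In the podocyte list the weakest decile was better matched, at 27.0% unmatched, than decile 4. The missing partner was rarely close by. A peak of the other list began or ended within 500 bp of 519 unmatched podocyte peaks (11.5%) and 631 unmatched glomerular peaks (6.46%), and the median gap was 10.7 kb and 12.5 kb.

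**Figure D5:**
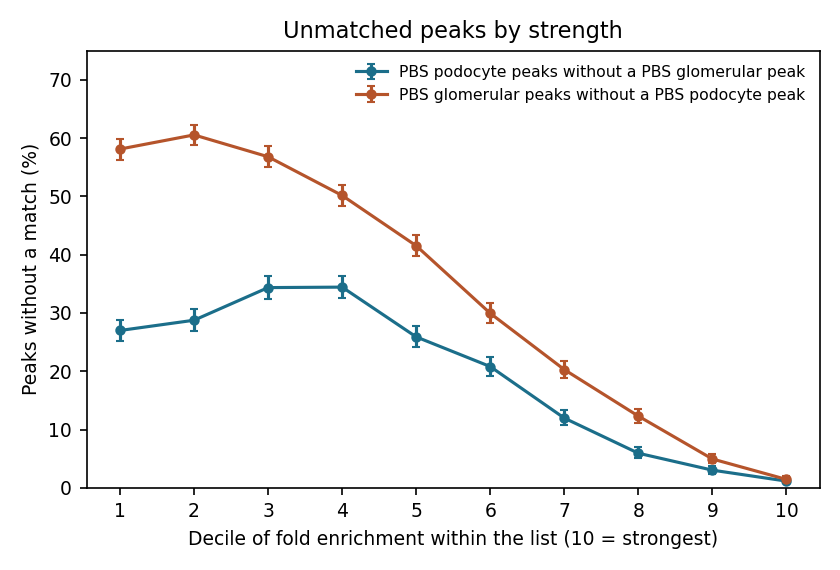
Share of peaks without an overlapping peak in the other list (y axis, %) by decile of fold enrichment within the list (x axis), with 95% Wilson intervals. Both shares fall to near 1% in the strongest decile, and the podocyte share is highest in decile 4 (34.4%), not in the weakest decile (27.0%).

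Most unmatched podocyte peaks had a peak in day 9 podocytes. Of the 4525, day 9 podocytes had a peak at 2758 (61.0%, 59.5 to 62.4) and ADR glomeruli at 558 (12.3%, 11.4 to 13.3). For matched podocyte peaks these shares were 93.3% and 58.0%. Of the 9776 unmatched glomerular peaks, ADR glomeruli had a peak at 2449 (25.1%, 24.2 to 25.9) and day 9 podocytes at 3896 (39.9%, 38.9 to 40.8). A peak in ADR glomeruli and in neither ADR podocyte list was present at 1269 of them, and a peak in an ADR podocyte list and not in ADR glomeruli at 2716. Of the 19306 matched glomerular peaks these numbers were 446 and 7360. For matched glomerular peaks the shares were 57.4% and 93.2%. The ADR glomerular list held 16634 peaks and the day 9 list 31949, and their lengths bear on these shares.

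The strongest unmatched podocyte peak, on chromosome 7 (80668748 to 80670276, 1529 bp wide), stood at percentile 99.3, and the nearest glomerular peak was 2.11 kb away. Its enrichment was 47.2-fold in PBS podocytes, 43.2-fold at day 9, 22.0-fold at day 14 and 10.05-fold in ADR glomeruli. The site on chromosome 18 (12154344 to 12155088) had 42.55-fold at PBS, 58.3-fold at day 9 and 17.2-fold at day 14, with no peak in either glomerular list. Sites on chromosomes 1 (67090431 to 67091014, 38.2-fold) and 4 (3630525 to 3631294, 36.4-fold) behaved likewise, with 52.3-fold and 74.5-fold at day 9. The site on the X chromosome (70299100 to 70299702, 38.5-fold) had 8.65-fold enrichment in ADR glomeruli.

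The strongest unmatched glomerular peak, on chromosome 3 (123488881 to 123489486), was at percentile 99.98, and its nearest podocyte peak was 277 kb away. ADR glomeruli had it at 11.8-fold and percentile 80.8, and day 9 podocytes at 4.69-fold and percentile 22.4. A second peak on chromosome 3 (58863889 to 58864507, 26.7-fold) had 5.82-fold enrichment in ADR glomeruli and no peak in any podocyte list. The same held for a peak on chromosome 8 (109463498 to 109463925, 25.3-fold), at 5.63-fold. Those on chromosomes 6 (119381890 to 119382622, 28.1-fold) and 1 (127819746 to 127820214, 26.1-fold) had day 9 peaks of 6.95-fold and 5.28-fold. In ADR glomeruli the site on chromosome 6 had 14.8-fold enrichment, and the site on chromosome 1 had no peak. None of these 5 had a day 14 peak, and all 5 podocyte peaks above had one, but the leading peaks do not stand for the rest. Over all unmatched peaks, day 14 podocytes had a peak at 4.62% of podocyte and 0.962% of glomerular ones, against 32.4% and 32.05% of matched ones.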

How the data were processed

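WT1 ChIP-seq chromatin was fixed with 1% formaldehyde for 5 min and sheared to 200 to 600 bp, per the labels' protocols. The promoter of the recombinase transgene is not reported here. The submitters' processing notes name Bowtie 0.12.7, the build mm9 and the peak caller MACS2. The control, the cutoff and the pooling of libraries were not given in the sources used here. Read totals were not used, so that depth is unknown. For every peak the authors deposited a fold enrichment, which is a ratio, and its significance as −log10 p and −log10 q. The integer score deposited by the authors entered no result.

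Peaks sharing at least 1 bp matched. Percentiles gave ties their mean rank. The implied background was solved per peak from fold enrichment and p, and the implied pileup followed from both. In the ADR lists the peak that overlapped a pair most was used. Sites named were the leading ones by rank difference, mean percentile, width ratio, summit distance, strength without a match and summits per window, and those nearest the 50 point limit. Pairing and background code were tested on simulated data. The first found 10367 of 10367 simulated pairs, and the second came within 25% of 1796 of 1868 simulated backgrounds. Those backgrounds were simulated with the inferred form itself, so that the form was not tested. Gene location, marker genes and motif share were planned only for an mm9 annotation or genome and were not run. Alternatives were stricter overlap, significance, list length and other rankings. Members, lists and rules were chosen with earlier results of these data known. Versions were matplotlib 3.10.9, scipy 1.17.1, pandas 2.3.3 and numpy 2.4.6 under Python 3.11.15.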

Additional observations from a re-analysis of the deposited data

How the results depend on the processing

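No paired analysis was possible because the deposited lists carry no replicate numbers, and leaving out a replicate could not be done either. Of 74 alternative values for 12 results, 33 stayed close to the reported one, 39 moved, and 2 reversed. A median or share moved where it left the 95% interval of the reported value, a count where it changed by over 1.5 times and a rho where it changed by over 0.01. The cause was not tested. Rankings by implied pileup, single matches, and comparing the ADR lists by another quantity were added after seeing the data.

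Asking the overlap to cover 50% of the shorter peak gave unmatched shares of 20.03% in podocytes and 34.2% in glomeruli. Summits within 200 bp gave 22.3% and 37.5%, and a peak within 500 bp gave 17.1% and 31.5%. Keeping only peaks whose −log10 q reached 10, there were 11889 pairs, a rho of 0.561, a median absolute difference of 15.9 points, 542 glomerulus-higher pairs, a width ratio of 1.24, a summit distance of 23 bp, 92.4% of summits within 100 bp and unmatched shares of 26.5% and 25.7%. With that limit on the counted peaks only, the shares were 9.665% and 15.1%. Lists trimmed to equal length gave 16900 pairs, of which 660 were glomerulus-higher, and a median absolute difference of 15.1 points. The width ratio was then 1.23, the summit distance 26 bp, and 89.8% of summits lay within 100 bp. The unmatched shares were 27.1% and 26.2%. Pairs with single matches gave a width ratio of 1.24 and 89.4% within 100 bp.

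Ranking by p-value gave a rho of 0.6935, 12.8 points, 537 glomerulus-higher pairs, and day 9 minus ADR medians of 29.6 and -6.74 at the pairs it chose. Percentiles among pairs gave 553 glomerulus-higher pairs. A limit of 30 points gave -21.0 at glomerulus-higher pairs. Ranking by implied pileup gave a rho of 0.67, 13.6 points, 288 and 456 pairs, and medians of 47.2 and, reversed, 6.67. For the glomerulus-higher pairs chosen by fold enrichment, comparison by p-value gave -5.04 and by pileup, reversed in sign, 11.01. Both reversed values lay below the median of 13.1 points over all pairs by pileup.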

Other observations

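Numbers of summits per 100 kb window had a Spearman's rho of 0.730 between the preparations over 10998 windows with a peak in either list. The numbers were equal in 3800 windows, higher in glomeruli in 5108 and higher in podocytes in 2090. Both lists had a peak in 8575 windows, podocytes alone in 832 and glomeruli alone in 1591. A difference of 5 or more summits was found in 11 windows toward podocytes and in 141 toward glomeruli, whose list was the longer. The window at 87700001 to 87800000 on chromosome 17 held 16 glomerular and 3 podocyte summits, with 4 in ADR glomeruli and 5 in day 9 podocytes. On chromosome 1, the stretch from 135100001 to 135200000 had 15 glomerular against 4 podocyte summits and 1 in ADR glomeruli. Toward podocytes, the window at 44900001 to 45000000 on chromosome 2 held 13 podocyte and 6 glomerular summits, with 10 in day 9 podocytes and 1 in ADR glomeruli. The stretch from 86200001 to 86300000 on chromosome 10 had 9 against 2, and 8 in day 9 podocytes.

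Peaks on the Y chromosome and on mitochondrial DNA were nearly all in the podocyte lists. PBS podocytes had 22 Y peaks, of which 21 had a day 9 peak, and day 9 podocytes had 25. PBS glomeruli had 1, with 13.9-fold enrichment, and ADR glomeruli and day 14 podocytes had 0. The 22 peaks had a median fold enrichment of 2.93 and a maximum of 25.7, and 7 of them lay between 1700001 and 1800000 and another 7 between 2800001 and 2900000. Mitochondrial peaks numbered 6 in PBS podocytes, 6 at day 9, 3 at day 14 and 0 in either glomerular list, with at most 3.655-fold enrichment in PBS podocytes. The X chromosome held 2.10% of podocyte and 2.07% of glomerular peaks. The labels do not give the sex of the mice.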
